A study of Sus scrofa with 21 samples.

Results

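Interleukins are secreted proteins through which immune cells, epithelium and stroma signal to each other, and interleukin receptors are the membrane chains that bind them. This report describes the transcripts of 31 such genes, 19 ligands and 12 receptors, among 2389 genes that could be named on an array of pig endometrium, the lining of the uterus. A gene was a member when its symbol is IL followed by a digit and a probe reached it through its RefSeq accession. IL6 and IL1B were left out by that rule. Each gene is represented by 1 probe, the brightest over all arrays, out of 44 probes designed on the 31 genes.

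RNA was measured on 21 one-colour arrays in 7 groups of 3. All animals were Large White sows. Of 9 pregnant sows, 3 were killed on each of day 13, 18 and 24 after insemination, and each gave endometrium from a conceptus attachment site and from the inter-site, the stretch between attachments. The non-pregnant group held 3 sows inseminated with inactivated sperm and sampled on day 13. The tissue was taken whole, so fewer cells of a type and less RNA per cell cannot be told apart in any value below. The series title asks which endometrial genes differ during implantation in the pig.

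Pig conceptuses elongate, attach to the uterine epithelium without invading it, and release interferons and an interleukin of the interleukin-1 family into the uterine lumen while they do so. The endometrium answers with a wave of leukocyte recruitment and with growth of vessels at the attachment sites. Most interleukin receptors are assembled from several chains. Chains shared between several ligands, such as the common gamma chain IL2RG, the signal transducer IL6ST, IL12RB1 and IL10RB, join a chain that is specific for a ligand and pass the signal to JAK kinases and STAT transcription factors, whereas receptors for the interleukin-1 family signal through MYD88 and TRAF6.

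Between 62.3% and 77.1% of the probes on an array were well above background by the scanner software's own call, and no spot was saturated. Levels are log2 signal relative to the 75th percentile of the array, so they are compared only within a probe. Differences are log2 differences between group means with their standard error (SE), and adjusted p-values come from limma with Benjamini-Hochberg adjustment over the 30091 probes tested. Tests were run on probes that the software called well above background throughout 1 or more groups of 3 arrays, and a probe was called changed at an adjusted p under 0.05. The p-values rest on the spread of each probe pooled over all groups of 3 arrays, so arrays outside a comparison affect them too. Comparisons that share a group share its arrays. Both sites of a pregnant sow entered as separate, unpaired arrays. Epithelial markers served as a check of the tissue, and 6 of 6 that were measured were above background on all arrays of every group.

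Among the libraries, 2 stood apart from their groups. DKK1, a secreted WNT inhibitor, lay between 3.54 and 5.67 on the other 16 arrays of pregnant sows and between -5.37 and -4.63 on those of the non-pregnant sows. It was at -3.24 in inter-site day 13 replicate 1 and at -6.13 in inter-site day 24 replicate 3, so both libraries went against their labels at this gene. Non-pregnant replicate 3 correlated with these libraries at 0.968 and 0.988 over the probes tested, and at 0.946 and 0.947 with the other arrays of its own group. Inter-site differences of members with an unadjusted p under 0.05 are given with and without both libraries.

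Interleukin transcripts fell into a core seen on every array and a rest seen on fewer arrays or on none. On all 21 arrays, 14 of the 31 members were well above background. They were 8 ligands, namely IL1A, IL1B2 and IL18 of the interleukin-1 family, IL10 and IL29, IL15, IL16 and IL5, and 6 receptor chains, namely IL4R, IL13RA1, IL6R, IL6ST, IL12RB1 and IL10RB. IL4, IL13, IL17A, IL21 and IL12RB2 were above background on no array. IL4 and IL13 are the ligands of IL4R and IL13RA1, IL17A and IL21 are products of activated T cells, and IL12RB2 is the chain that completes the interleukin-12 receptor with IL12RB1.

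The remaining 12 members were detected on some arrays. IL7R was above background on 20 arrays, IL27 on 19, IL18R1 on 18 and IL7, a stromal survival factor for lymphocytes, on 10. IL12A was above background on 7, IL2RG on 6, IL23A on 5 and IL12B, the chain that IL12A and IL23A both pair with, on 3. IL2 and its receptor chain IL2RA were each detected on 2 arrays, and IL9 and IL23R on 1 each. In the text below, a gene not above background on an array has only an upper limit there.

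Detection by group varied little. The members above background on all 3 arrays numbered 15 in the non-pregnant group, 16 at day 13 attachment sites, 16 at day 13 inter-sites, 16 at day 18 attachment sites, 17 at day 18 inter-sites, 17 at day 24 attachment sites and 18 at day 24 inter-sites. Those above background on some arrays only numbered 7, 5, 5, 5, 4, 2 and 4 in the same order, and those on none 9, 10, 10, 10, 10, 12 and 9. Over all probes, the share above background on all 3 arrays of a group lay between 60.2% and 64.6%.

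**Figure D1:**
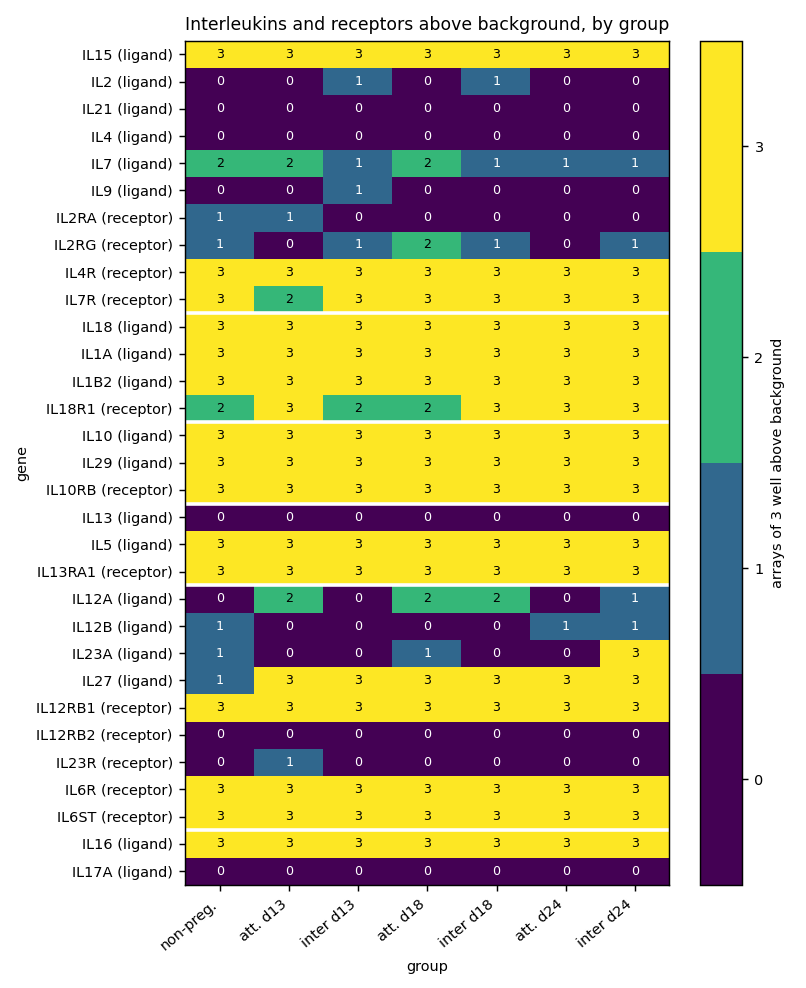
Number of arrays, out of 3, on which each of the 31 genes was well above background, by group (columns) and gene family (blocks of rows, with ligand or receptor in brackets). The map shows 14 genes at 3 in every group, 5 genes at 0 in every group, and IL23A at 3 in day 24 inter-sites and at 0 or 1 elsewhere.

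Of the 31 members, 18 could be tested, 10 ligands and 8 receptors, and 13 could not because no group had them above background on all its arrays. Over 12 comparisons between groups, 7 differences in 6 genes passed the threshold, and all 7 were between days at attachment sites. IL12RB1 rose from day 13 to day 18. IL4R and IL5 rose and IL15 fell from day 18 to day 24. IL4R, IL13RA1 and IL18 rose from day 13 to day 24. Under normexp background correction all 7 lost their call and kept their direction, at adjusted p-values from 0.0654 for IL18 to 0.747 for IL12RB1. IL4R for day 24 against day 13 was then at 0.94 (adjusted p = 0.186). Over all probes, normexp called 128, 221 and 1142 in these 3 comparisons of days, against 540, 1698 and 4724 as reported. Where a single library or another setting ended a call, this is given with the gene. The first comparison called 1 of 18 members (5.56%) where 1.79% of all probes were called, the second 3 of 18 (16.7%) where 5.64% were, and the third 3 of 18 (16.7%) where 15.7% were. The share of members called for day 24 against day 13 was thus close to that of all probes.

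IL4R and IL13RA1 are the chains of the type II interleukin-4 receptor, which binds interleukin-4 and interleukin-13 on epithelial and stromal cells. IL4R was the one member called in the test of any difference among the 7 groups (adjusted p = 0.0141), where 13.4% of all probes were called. That call ended without attachment site day 24 replicate 3 (adjusted p = 0.0594). It also ended with the slide as a block (adjusted p = 0.0667) and under normexp (adjusted p = 0.459). The levels of IL4R at day 24 attachment sites were -1.64, -1.98 and -1.50 in replicates 1 to 3. At day 18 attachment sites they were -2.26, -3.59 and -3.26, and at day 13 attachment sites -2.79, -3.06 and -3.38. Every day 24 array thus lay above every earlier array of the attachment sites.

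The rise of IL4R from day 18 to day 24 was 1.33 (SE 0.31, adjusted p = 0.0207 in limma), or 2.51-fold. From day 13 to day 24 it was 1.37 (SE 0.31, adjusted p = 0.00766 in limma), or 2.58-fold, with a difference of 0.04 between day 13 and day 18. The rise from day 13 stayed past the threshold when any one of the 21 arrays was left out, with adjusted p-values of up to 0.0409, and with the slide as a block (1.54, adjusted p = 0.0203). Within slides 1 and 4, which each held an array of both days, it was 1.16 and 1.07. The rise from day 18 was 1.92 within slide 2, and it ended with the slide as a block (1.29, adjusted p = 0.102) and without day 18 replicate 2 or 3 or day 24 replicate 2 or 3 of the attachment sites (adjusted p = 0.0600 to 0.0983).

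At inter-sites IL4R had levels of -2.83, -3.17 and -2.84 on day 13, -3.26, -3.60 and -3.44 on day 18 and -2.53, -1.80 and -2.38 on day 24. The day 24 arrays lay above all those of day 13 and day 18, with a difference from day 18 of 1.20 (SE 0.31, adjusted p = 0.103) that did not pass the threshold. The change from day 18 to day 24 differed between site types by 0.13, with a 95% interval from -0.79 to 1.05, so the data do not place it at attachment sites alone. In the non-pregnant group IL4R was at -3.11, -2.99 and -2.37, within the span of the pregnant day 13 and day 18 arrays.

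IL13RA1 was at -2.46, -2.19 and -2.08 at day 24 attachment sites, against -3.49, -3.17 and -3.46 on day 13. The groups did not overlap, and the rise was 1.13 (SE 0.27, adjusted p = 0.0109 in limma), or 2.19-fold. On day 18 it was at -2.29, -2.86 and -3.13, a span that reached into the day 24 values. The call ended without day 24 replicate 3 (adjusted p = 0.0527) and held with the slide as a block (1.15, adjusted p = 0.0247), with 1.03 and 0.98 within the slides that held both days.

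At inter-sites IL13RA1 was at -2.54, -2.90 and -3.11 on day 13, -3.32, -2.85 and -3.82 on day 18 and -2.85, -2.23 and -2.55 on day 24. Its mean thus went from -2.85 to -3.33 between day 13 and day 18 at inter-sites and from -3.37 to -2.76 at attachment sites. The difference between these changes was 1.09 (95% interval 0.28 to 1.90) and did not pass adjustment over all probes (adjusted p = 0.599). In the non-pregnant group it was at -2.42, -2.70 and -2.94, above all day 13 attachment site arrays, and that difference of -0.69 (SE 0.27, adjusted p = 0.171) also missed the threshold.

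Among the ligands, IL5, a growth factor for eosinophils, and IL18, described below, had a called rise. At attachment sites the levels of IL5 were -3.35, -3.22 and -3.21 on day 13, -4.07, -4.84 and -3.58 on day 18 and -2.33, -2.97 and -3.08 on day 24. Day 18 held the lowest values and day 24 the highest, with no overlap between the 3 days. The rise from day 18 to day 24 was 1.37 (SE 0.31, adjusted p = 0.0183 in limma), or 2.58-fold. The preceding difference from day 13 to day 18 was -0.90 (SE 0.31, adjusted p = 0.114) and passed the threshold without day 18 replicate 3 (adjusted p = 0.0240). Without day 18 replicate 2 it was -0.56 (adjusted p = 0.409), and under normexp -0.32.

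The rise of IL5 was 1.12 within slide 2 and was lost with the slide as a block (1.35, adjusted p = 0.102) and without attachment site day 18 replicate 2, day 24 replicate 1 or day 24 replicate 2 (adjusted p = 0.0570 to 0.0638). Its second probe gave 1.0 (adjusted p = 0.0744). Non-pregnant arrays lay at -3.17, -3.36 and -2.99. Inter-site arrays lay at -3.69, -4.13 and -3.37 on day 13, at -3.64, -3.62 and -3.81 on day 18 and at -3.80, -3.04 and -2.88 on day 24. The day 24 inter-site values thus overlapped those of the earlier days.

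**Figure D2:**
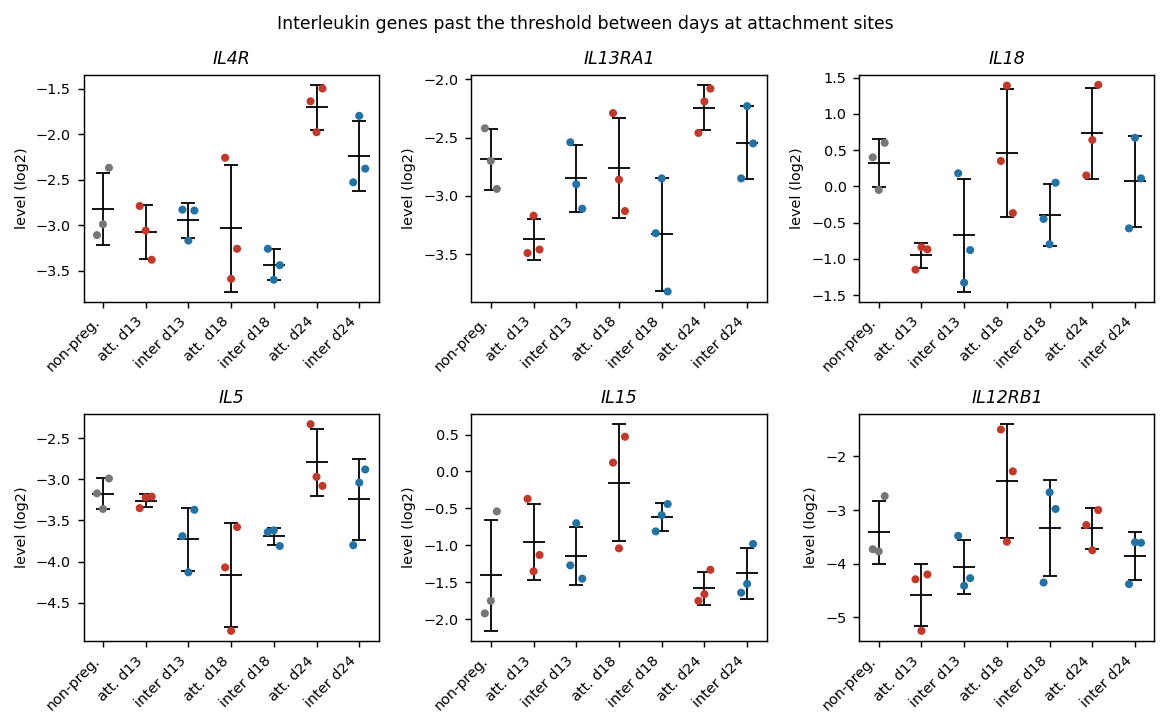
Level of the 6 called genes on each array (points, log2 relative to the array's 75th percentile) by group, with the group mean and SD (bars, n = 3). The day 24 attachment site arrays of IL4R lie between -1.98 and -1.50, above the -3.59 to -2.26 of the day 13 and day 18 attachment site arrays.

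In the interleukin-1 family, IL18 is made by epithelium and macrophages, released after cleavage by caspase-1, and induces interferon-gamma in T and NK cells. It was low at day 13 attachment sites, at -1.15, -0.84 and -0.87, and its day 24 levels there were 0.15, 0.64 and 1.40. The rise was 1.68 (SE 0.46, adjusted p = 0.0214 in limma), or 3.20-fold. Its second probe gave 1.57 (adjusted p = 0.0288). On day 18 the arrays spread from -0.37 through 0.35 to 1.39, all above day 13, with a difference from day 13 of 1.41 (SE 0.46, adjusted p = 0.103) that passed the threshold only without day 18 replicate 3 (adjusted p = 0.0241). CASP1, the caspase that cleaves the interleukin-18 precursor, rose by 2.90 over the same interval from day 13 to day 18 (adjusted p = 0.0349).

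The call of IL18 for day 24 against day 13 ended with the slide as a block (1.51, adjusted p = 0.0962), and without any one of the 3 day 13 arrays or of day 24 replicates 2 and 3 (adjusted p = 0.0541 to 0.112). It was 1.30 and 1.48 within the slides that held both days. Non-pregnant arrays were at 0.40, -0.05 and 0.60, above all day 13 attachment site arrays, at a difference of -1.27 (SE 0.46, adjusted p = 0.141). At inter-sites the levels were 0.18, -1.33 and -0.88 on day 13, -0.45, -0.80 and 0.05 on day 18 and -0.58, 0.67 and 0.11 on day 24. The value of 0.18 belongs to the day 13 library that stood apart, the highest of its group.

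IL1A, a cell-associated cytokine that binds the same receptor as interleukin-1 beta, had widely spread levels. At attachment sites they were -0.75, -2.56 and -2.68 on day 13, -2.37, -2.08 and -0.93 on day 18 and -1.97, -1.26 and -1.02 on day 24. At inter-sites they were -3.72, -1.45 and -1.65 on day 13, -0.76, -1.56 and -0.91 on day 18 and -3.20, -3.31 and -2.31 on day 24. Non-pregnant arrays were at -3.18, -2.35 and -2.97. Day 24 was the one day on which the site types did not overlap, with a difference of 1.52 (SE 0.59, adjusted p = 0.490), or 1.84 without both libraries that stood apart.

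The day 24 inter-sites of IL1A also lay below all those of day 18, by -1.86 (SE 0.59, adjusted p = 0.169), while at attachment sites the same days differed by 0.37. The difference between these changes was 2.24 (95% interval 0.46 to 4.01) at an unadjusted p of 0.0165, which did not pass adjustment over all probes (adjusted p = 1.0). IL18R1, the ligand-binding chain of the interleukin-18 receptor, had group means between -4.78 and -3.73, and none of its differences was called.

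IL1B2 is a pig gene nearly identical to IL1B, and the conceptus form of interleukin-1 beta is its product. Group means of its brightest probe lay between -2.16 and -1.33, with 1 high array, inter-site day 13 replicate 3 at 0.07. Its other two probes were above background on 2 and 1 arrays. The IL1B probe had group means between -3.99 and -1.96. Because these transcripts share nearly all their sequence, the assignment of signal to IL1B2 is uncertain.

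**Figure D3:**
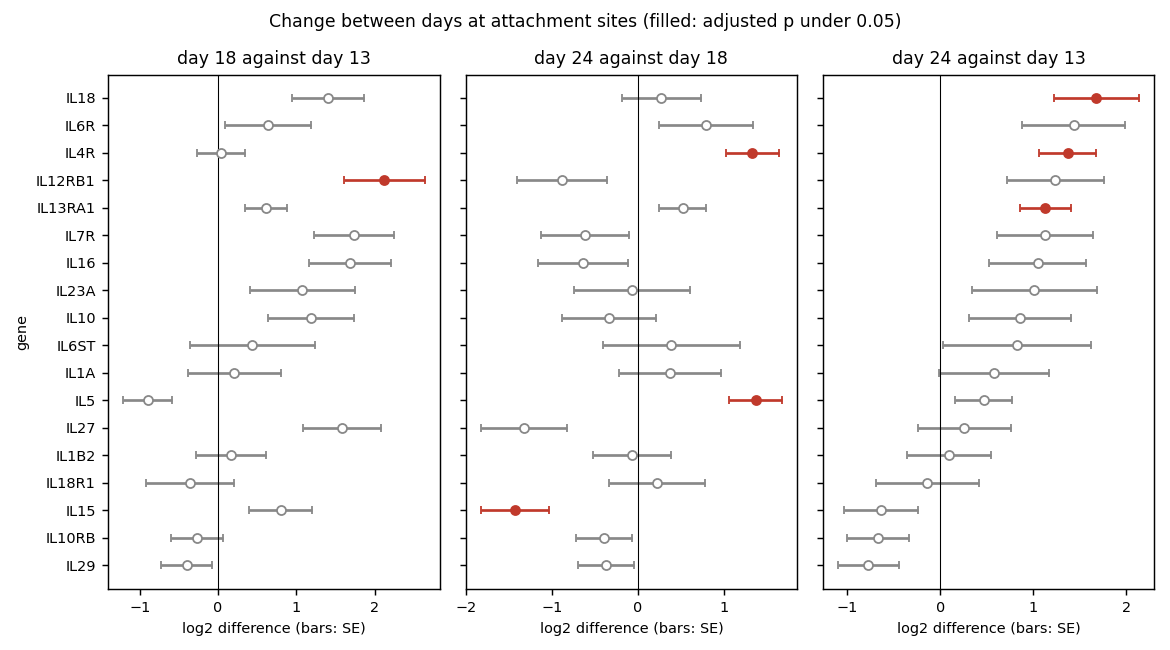
Log2 difference between days at attachment sites for the 18 tested genes (points, bars show the SE), in 3 panels for day 18 against day 13, day 24 against day 18 and day 24 against day 13. Filled points passed an adjusted p of 0.05: IL12RB1 at 2.12 in the first panel, IL4R at 1.33, IL5 at 1.37 and IL15 at -1.43 in the second, and IL18 at 1.68, IL4R at 1.37 and IL13RA1 at 1.13 in the third.

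Day 18 attachment sites had the highest group mean of 6 tested members, the ligands IL15, IL16, IL10 and IL27 and the receptor chains IL12RB1 and IL7R. Day 24 attachment sites had that of IL4R, IL13RA1, IL18, IL5, IL6R and IL6ST. The share of all probes with their highest mean in each group was not counted. IL15, described below, was called for day 24 against day 18. IL12RB1, the chain shared by the interleukin-12 and interleukin-23 receptors of T and NK cells, was the one called for day 18 against day 13. Its levels at attachment sites were -4.29, -5.25 and -4.20 on day 13 and -1.50, -3.59 and -2.28 on day 18. These groups did not overlap, and the rise was 2.12 (SE 0.52, adjusted p = 0.0469 in limma), or 4.35-fold. On day 24 the levels were -3.28, -3.75 and -3.0, overlapping day 18. Inter-sites held -3.48, -4.41 and -4.27 on day 13, -4.35, -2.67 and -2.98 on day 18 and -4.38, -3.60 and -3.61 on day 24, and the non-pregnant group -3.73, -3.77 and -2.74.

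The call of IL12RB1 was at the edge of the threshold. It held without non-pregnant replicate 3, inter-site day 13 replicate 1, inter-site day 18 replicate 1 or 2, or attachment site day 18 replicate 2 or 3, and ended without any one of the other 15 arrays, with adjusted p-values of 0.0276 to 0.221 over all 21. It was also lost with the slide as a block (2.19, adjusted p = 0.162), under quantile normalization (2.0, adjusted p = 0.0646), in the authors' deposited values (adjusted p = 0.0647) and with no filter on dim probes (adjusted p = 0.0743). Under normexp the difference was 0.74 (adjusted p = 0.747). Within slide 3, which held an array of both days, the difference was 2.70.

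IL15, which sustains NK cells and memory T cells and is made in the uterus by stromal and epithelial cells, was at 0.12, -1.04 and 0.47 at day 18 attachment sites and at -1.75, -1.66 and -1.33 on day 24. The groups did not overlap, and the fall was -1.43 (SE 0.40, adjusted p = 0.0453 in limma), or 2.70-fold. Its second probe gave -1.54 (adjusted p = 0.0557). On day 13 the attachment sites were at -0.37, -1.35 and -1.13. The inter-sites were at -1.27, -0.70 and -1.45 on day 13, at -0.81, -0.59 and -0.44 on day 18 and at -1.64, -1.52 and -0.98 on day 24, so their highest day also was day 18. Non-pregnant arrays were at -1.92, -1.75 and -0.54.

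The call of IL15 ended without any one of 12 of the 21 arrays, with adjusted p-values of 0.0153 to 0.152 over all 21. At attachment sites these were day 13 replicates 2 and 3, day 18 replicates 1 and 3 and all 3 of day 24. Elsewhere they were non-pregnant replicate 2, all 3 day 18 inter-site arrays and day 24 inter-site replicate 2. The slide as a block gave -1.17 (adjusted p = 0.176), quantile normalization -1.41 (adjusted p = 0.0542), the authors' deposited values also -1.41 (adjusted p = 0.0541), normexp -0.95 (adjusted p = 0.253), and no filter on dim probes an adjusted p of 0.0708. Within slide 2 the difference was -1.05. IL2RG, which completes the receptors of IL2, IL4, IL7, IL9, IL15 and IL21, was above background on 2 of the 3 day 18 attachment site arrays and on 6 arrays in all, and was not tested.

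Among the members that did not pass, IL7R, the receptor of the lymphocyte survival factor IL7, was at -5.41, -5.04 and -4.04 at day 13 attachment sites and at -1.74, -4.52 and -3.01 on day 18. The value of -5.41, from day 13 replicate 1, was not above background and is an upper limit. The difference was 1.74 (SE 0.51, adjusted p = 0.0805) and passed without day 18 replicate 2, the low array of that day (adjusted p = 0.0230). Without replicate 1, the high array, it was 1.07 (adjusted p = 0.310), and under normexp 0.57. The second IL7R probe gave 0.87 (adjusted p = 0.475). On day 24 the levels were -3.82, -3.71 and -3.59. The inter-sites lay between -4.70 and -3.34 over the 3 days and the non-pregnant arrays between -4.16 and -3.29.

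IL16, a chemoattractant for CD4 T cells stored as a precursor in lymphocytes, was at -0.16, -0.70 and 0.25 on day 13 and at 2.42, 0.84 and 1.18 on day 18 at attachment sites. The groups did not overlap, at a difference of 1.68 (SE 0.52, adjusted p = 0.0919). On day 24 the levels were 0.70, 0.78 and 1.05. Inter-sites were at 0.69, -0.25 and 0.29 on day 13, 0.11, 0.88 and 0.73 on day 18 and -0.40, 0.79 and 1.22 on day 24, and the non-pregnant group at 0.05, -0.32 and 1.74.

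IL27, an antigen-presenting cell product that signals through IL6ST, was at -4.64, -4.54 and -4.92 on day 13, -2.04, -4.04 and -3.27 on day 18 and -4.38, -4.41 and -4.53 on day 24 at attachment sites. Day 18 lay above both other days on every array, by 1.58 over day 13 (SE 0.50, adjusted p = 0.0937), and day 24 differed from day 18 by -1.33 (SE 0.50, adjusted p = 0.124). Without day 18 replicate 1 these differences were 1.04 and -0.79, and under normexp 0.50 and 0.11, the second in the opposite direction. At inter-sites the levels were -4.40, -4.76 and -3.35 on day 13, -5.03, -3.34 and -3.72 on day 18 and -4.59, -4.77 and -4.32 on day 24. In the non-pregnant group IL27 was above background on 1 array, with measured values of -5.0, -4.47 and -3.60.

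IL10, the cytokine that damps macrophage and T cell activation, differed by 1.19 between day 13 and day 18 attachment sites (SE 0.55, adjusted p = 0.224), with means of -2.83 ± 0.37 and -1.64 ± 0.53 (SD, n = 3). Its second probe gave 0.26 (adjusted p = 0.865), and normexp 0.64. Over all 18 tested members, 14 were higher on day 18 than on day 13 at attachment sites, with a median difference of 0.63. Of all probes tested, 50.5% were higher and the median was 0.01.

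**Figure D4:**
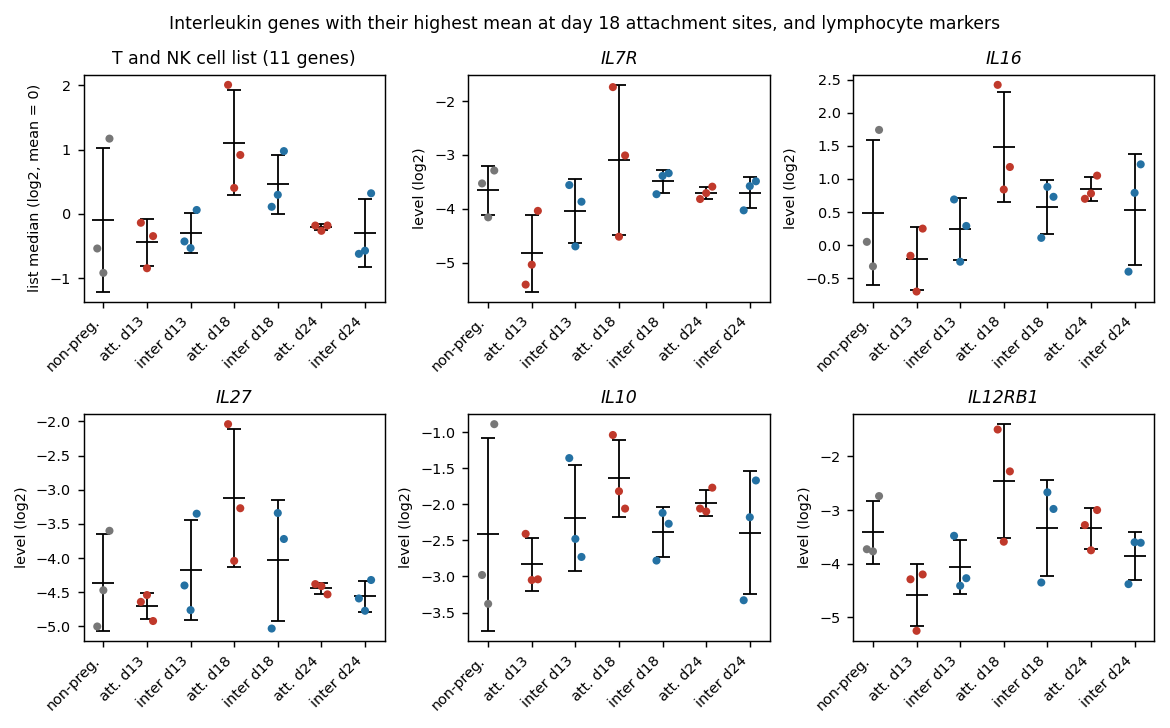
Per-array values of a T and NK cell marker list (first panel, median over 11 genes of the level minus that gene's mean over all arrays) and of IL7R, IL16, IL27, IL10 and IL12RB1 (level, log2 relative to the array's 75th percentile), by group with mean and SD (n = 3). Day 18 attachment site replicate 1 is the highest of its group in every panel, at 2.01 for the list and -1.50 for IL12RB1.

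Some markers of T and NK cells also were higher on day 18. Of 18 markers listed, 12 were measured and 11 tested, and 2 rose from day 13 to day 18 at attachment sites, CD2 by 2.79 (adjusted p = 0.0255) and CD3D by 2.05 (adjusted p = 0.0436), both T cell surface proteins. From day 18 to day 24, the cytotoxic granule proteases GZMA and GZMB fell by 2.07 (adjusted p = 0.0338) and 1.67 (adjusted p = 0.00820). GZMB was not called from day 13 to day 18, and it was also called lower on day 24 than on day 13. From day 13 to day 24 the median difference of the tested markers was 0.26. For day 18 against 13, 24 against 18 and 24 against 13, 1.79%, 5.64% and 15.7% of all probes were called. Of the 12 markers, 9, 10 and 9 were above background on all 3 attachment site arrays of day 13, 18 and 24. Per array, the median of the list relative to its overall mean ran from -0.85 to -0.14 at day 13 attachment sites, was 2.01, 0.40 and 0.92 in day 18 replicates 1 to 3, and ran from -0.26 to -0.18 on day 24.

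Day 18 replicate 1 was thus highest and replicate 2 lowest in the list. IL12RB1, IL7R and IL27 had the same order of the day 18 attachment site arrays, and so had IL16. IL10, at -1.04, -1.82 and -2.06, and IL15 did not. In the non-pregnant group the list was at -0.54, -0.92 and 1.17, and replicate 3 was also the highest of that group for IL12RB1, IL7R, IL16, IL27, IL10 and IL15. The part of lymphocyte markers in the differences of these genes was not tested.

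IL6R binds interleukin-6, and IL6ST is the signalling chain that it shares with the receptors of LIF, interleukin-11 and interleukin-27. IL6R levels at attachment sites were -2.60, -2.50 and -3.32 on day 13, -1.97, -2.09 and -2.44 on day 18 and -1.03, -1.29 and -1.80 on day 24. The day 24 arrays lay above all those of the other days. The difference of day 24 from day 13 was 1.43 (SE 0.55, adjusted p = 0.0867). It passed without both libraries that stood apart (adjusted p = 0.0147) and without the day 24 one alone (adjusted p = 0.0314), although neither is an attachment site library and the difference itself is the same.

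Those libraries changed the estimate of spread. At inter-sites IL6R was at -3.67, -2.13 and -2.36 on day 13, -2.08, -1.71 and -2.63 on day 18 and -1.51, -0.76 and -3.35 on day 24, where -3.67 and -3.35 are the libraries that stood apart. In the non-pregnant group it was at -2.59, -2.28 and -3.62. The other two IL6R probes gave 2.09 (adjusted p = 0.0784) and 2.22 (adjusted p = 0.0922) for day 24 against day 13 at attachment sites.

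IL6ST was lowest on the same 3 arrays, at 0.88 in non-pregnant replicate 3, 1.06 in inter-site day 13 replicate 1 and 1.12 in inter-site day 24 replicate 3. On the other 18 arrays it lay between 2.62 and 4.77. At attachment sites it was at 2.74, 3.09 and 2.65 on day 13, 3.27, 2.98 and 3.56 on day 18 and 3.90, 3.38 and 3.69 on day 24. Day 24 lay above day 13 on every array there, at a difference of 0.82 (SE 0.80, adjusted p = 0.533). At inter-sites the remaining levels were 3.44 and 2.62 on day 13, 3.20, 3.78 and 2.82 on day 18 and 3.20 and 4.77 on day 24, and in the non-pregnant group 3.48 and 3.77.

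IL23A, the specific subunit of interleukin-23, was above background on all 3 day 24 inter-site arrays, on 1 non-pregnant and 1 day 18 attachment site array, and on no array of the other 4 groups. It passed the filter only through the group in which it was high. Its levels at day 24 inter-sites were -4.62, -4.88 and -4.89, and the dimmer groups held measured values down to -7.60. Each dimmer array was then set to at least the lowest signal called above background on it. Day 24 inter-sites were 1.73-fold above day 13 attachment sites and 1.68-fold above day 13 inter-sites on that basis. They were 1.58-fold above day 18 inter-sites and 1.31-fold above day 24 attachment sites. These groups were picked because IL23A was above background on all arrays of 1 and no array of the other. The direction was largely set by that choice. In limma the differences of the measured values were 1.96 from day 18 inter-sites (adjusted p = 0.195) and 1.74 from day 13 inter-sites (adjusted p = 0.258). These rest on values below background in the dimmer groups, and under normexp they were 0.14 and -0.79, the latter in the opposite direction.

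**Figure D5:**
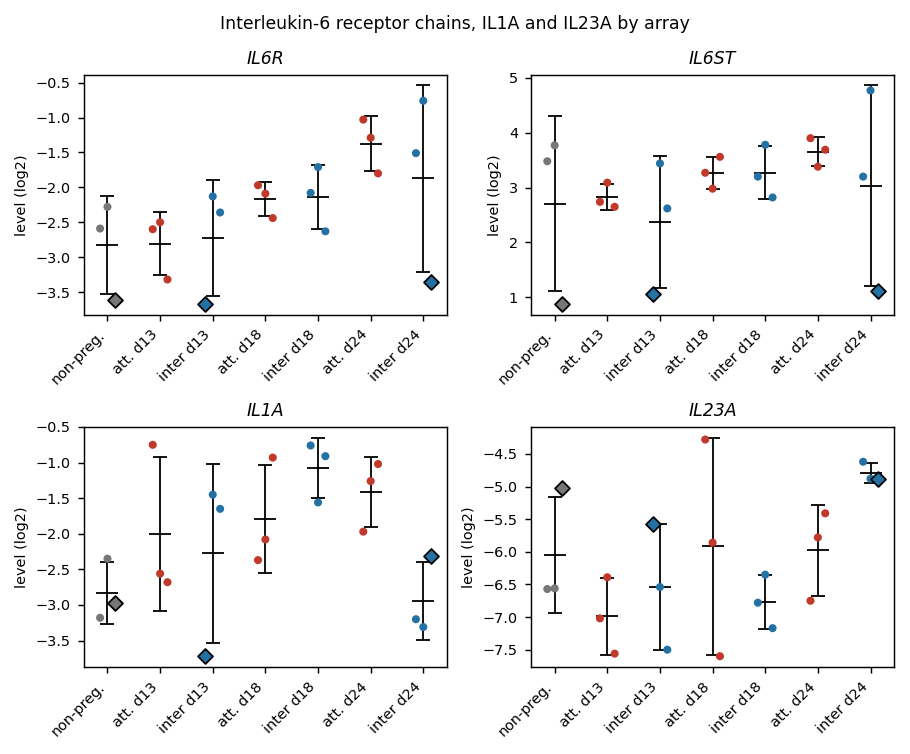
Level on each array (log2 relative to the array's 75th percentile) of IL6R, IL6ST, IL1A and IL23A by group, with mean and SD (bars, n = 3). Diamonds mark non-pregnant replicate 3, inter-site day 13 replicate 1 and inter-site day 24 replicate 3, which for IL6ST lie between 0.88 and 1.12, below all other arrays.

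Among receptors and ligands of the interleukin-10 and interferon-lambda family, IL10RB, the chain shared by the interleukin-10 and interferon-lambda receptors, had group means between -0.37 and 0.40. Its difference between attachment site and inter-site on day 13 was 0.77 (SE 0.33, adjusted p = 0.581), with 1 inter-site array, the one that stood apart, at -1.29. Without both libraries that stood apart it was 0.31 (adjusted p = 0.952), and without inter-site day 13 replicate 2 it was 1.17. IL29, an interferon-lambda that acts on epithelium, had group means between -2.57 and -1.75 and differed by -0.77 between day 24 and day 13 attachment sites (SE 0.33, adjusted p = 0.120), against 0.054 under normexp.

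Comparing pregnant and non-pregnant sows on day 13, limma called 0 of the 18 members at attachment sites, where 1.79% of all probes were called, and 4 members had an unadjusted p under 0.05. They were IL18 (-1.27), IL12RB1 (-1.17, adjusted p = 0.219), IL7R (-1.17, adjusted p = 0.215) and IL13RA1 (-0.69), all lower in pregnancy. Under normexp IL12RB1 was at -0.63 and IL7R at -0.68. IL7R was not above background in attachment site day 13 replicate 1. Of 4 macrophage markers, CD14 alone was called, higher at day 13 attachment sites (2.0, adjusted p = 0.0365). The median difference over the 4 was -0.04. The part of CD14 in these values was not tested. At inter-sites 0 members were called against 0.449% of all probes, and 1 member had an unadjusted p under 0.05, IL18 at -0.99 (adjusted p = 0.275), or -1.42 (adjusted p = 0.114) without the libraries that stood apart. Both counts also were 0 without the libraries that stood apart. Of the 30091 probes tested, 1964 and 1158 were then called, against 538 and 135 with these libraries. With the non-pregnant arrays shared between both comparisons, these are not independent values.

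Between attachment site and inter-site, limma called 0 members on day 13 (0% of all probes called), 0 on day 18 (0%) and 0 on day 24 (0.279%). At an unadjusted p under 0.05 there were 1, 0 and 1 members, namely IL10RB on day 13 and IL1A on day 24. Over the mean of the 3 days 0 members were called (0.00332% of all probes) and 0 had an unadjusted p under 0.05, and 13 of the 18 members were higher at attachment sites, with a median of 0.16. Over all probes 44.5% were higher.

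Between days at inter-sites, limma called 0 members for day 18 against day 13 (0.00665% of all probes), 0 for day 24 against day 18 (0.143%) and 0 for day 24 against day 13 (0.246%). At an unadjusted p under 0.05 there were 0, 4 and 2 members. The 4 were IL4R, IL13RA1 (0.78, adjusted p = 0.200), IL1A and IL23A, and the 2 were IL4R (0.71, adjusted p = 0.311) and IL23A. IL23A counts here on values below background on day 13 and day 18, and it entered the test only through day 24 inter-sites. Without both libraries that stood apart, day 24 against day 18 was 1.27 for IL4R, 0.79 for IL13RA1, -2.18 for IL1A and 2.01 for IL23A, and day 24 against day 13 was 0.84 for IL4R and 2.27 for IL23A. Under normexp the day 24 against day 13 difference of IL4R was -0.14, in the opposite direction, and the day 24 against day 18 differences of IL4R and IL13RA1 were 0.52 and 0.32. Leaving out both libraries that stood apart gave the same counts of 0 calls. Over all probes that setting called 0, 98 and 98, against 2, 43 and 74 with these libraries. Whether inter-sites and attachment sites changed differently between days was tested for every probe, and no member passed. Over all probes, 0 passed from day 13 to day 18, 3 from day 18 to day 24 and 6 from day 13 to day 24.

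Behind the receptors, a list of 52 genes of interleukin signalling held 28 measured and 27 tested genes. On day 18 against day 13 at attachment sites, where 1.79% of all probes were called, the genes called included CASP1, given above with IL18. From day 18 to day 24, SOCS3, the inhibitor that binds IL6ST, rose by 1.91 (adjusted p = 0.0174), GATA3, a transcription factor of type 2 lymphocytes and of trophoblast, rose by 2.49 (adjusted p = 0.0225), and STAT2, an interferon signal transducer, fell by 1.29 (adjusted p = 0.0233). These were 3 of the 27 tested genes, where 5.64% of all probes were called.

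From day 13 to day 24, SOCS3 rose by 2.86 (adjusted p = 0.000692) and GATA3 by 3.70 (adjusted p = 0.00101), and TRAF6 fell by 0.85 (adjusted p = 0.04997, just under the threshold). That was again 3 of the 27 tested genes, where 15.7% of all probes were called. STAT6, the transcription factor of the interleukin-4 receptor, differed by -0.43 (adjusted p = 0.195) and JAK1, a kinase of most of these receptors, by -0.15 (adjusted p = 0.568). In the comparisons between sites, with non-pregnant sows and between days at inter-sites, 0 genes of the list were called by limma. Of all probes, 0% to 1.79% were called in these comparisons. In a list of 25 related cytokines and receptors, 9 were measured and 6 tested, and for day 24 against day 13 at attachment sites TGFB3 rose by 1.71 (adjusted p = 0.00646) and the erythropoietin receptor EPOR by 1.51 (adjusted p = 0.0424). LIF, an IL6ST ligand, differed by 1.48 (adjusted p = 0.0959).

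Single markers of other cells rose at attachment sites over the same days as IL4R, IL5, IL13RA1 and IL18. Of 11 conceptus and trophoblast markers, 5 were measured and 4 tested, and GATA3 and TFAP2C (3.69, adjusted p = 0.0120) rose there from day 13 to day 24. The list median per array ran from 0.43 to 1.55 on day 24, from -0.81 to 0.37 on day 18 and from -1.11 to -0.24 on day 13. From day 18 to day 24, 1 of 4 macrophage markers rose, the haemoglobin scavenger receptor CD163 by 2.48 (adjusted p = 0.0158). The median difference over the 4 was -0.15, so the list did not rise with CD163. Over the same days 1 of 4 granulocyte and mast cell markers rose, S100A12 by 3.52 (adjusted p = 0.0493). Of 6 epithelial markers 1 rose, the adhesion protein CDH1 by 1.77 (adjusted p = 0.0293). The median differences of these lists were 2.3 and 1.1.

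The granulocyte and mast cell list median ran from -0.27 to 3.11 at day 13 attachment sites, from -1.98 to -0.49 on day 18 and from 0.44 to 1.68 on day 24. At attachment sites day 18 was thus the lowest, as it was for IL5. At inter-sites the list ran from -2.05 to 2.51 on day 13 and from -2.70 to -1.13 on day 18. IL5 had no such dip there, with means of -3.73 on day 13 and -3.69 on day 18. Smooth muscle markers, 5 of 10 measured, had list medians between -2.15 and 3.53 over all arrays and ran from -0.83 to 3.53 within the day 18 attachment sites alone. The part of these cell types in the differences of the members was not tested.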

How the data were processed

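The authors deposited 1 scanner file per array, holding the intensity of every spot. Per the file headers these came from Agilent Feature Extraction 10.7.3.1, and the submitters' processing notes name version 10.7. Processed intensity was background-subtracted within the array, per the file headers, with no step between arrays. A series-wide value table that the authors deposited held log2 values, quantile normalized as the equal column medians of 5.85 show, and served as an alternative. Of its 21 columns, 19 correlated best with their own scanner file, and day 24 inter-site replicates 2 and 3 followed each other's, so the scanner file was used.

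Control spots and outlier spots were left out, which gave 43603 probes. From the log2 of the processed signal, the 75th percentile of the same array was subtracted (354 to 854 in linear signal). The 13512 probes not above background on all 3 arrays of any group were not tested. The 7 group means were fitted over 21 arrays in limma 3.58.1 under R 4.3.3 (14 residual and 2.71 prior degrees of freedom), and this was tested on simulated data. Of 5779 probes with a RefSeq accession, 5461 matched a symbol of the Sscrofa11.1 gene table and 318 did not. Where a gene had several probes (11 members), the one with the highest mean stood for it. The number of arrays limits the precision.

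Values on every array were to be given for members past the threshold, for the 12 tested members with the widest range of group means, and for members above background on all arrays of 1 group and none of another. The members, lists and alternatives were chosen with earlier results of these data known. Alternatives were normexp background correction (offset 50, on median spot signal since no mean was present), quantile normalization, the authors' table, no filter on dim probes, slide as a fixed or random block, replicate number as a block, leaving out both libraries that stand apart, and leaving out each array. The tests of a change in site difference between days, and the bounds, were added after seeing the data. A bound compares the bright group's mean with a dim group in which each array takes the larger of 2 values, the probe's own and the lowest signal above background. A probe without the call can lie above that lowest signal, as IL27 did in non-pregnant replicates 1 and 2. Such a bound is therefore not strict. The labels do not tie libraries to sows, so sites were compared without pairing. The probe sequences and genome positions were not used here. A result for 1 gene of the signalling list is not reported here.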

Additional observations from a re-analysis of the deposited data

How the results depend on the processing

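The 9 comparisons with 0 members called kept 0 in all 29 alternatives. For day 18 against day 13 at attachment sites (1 member called), leaving out single arrays gave 0 to 3, and normexp, quantile normalization, the authors' table, no filter and the slide block gave 0. For day 24 against day 18 (3), single arrays gave 0 to 3, and normexp and the slide block 0. For day 24 against day 13 (3), single arrays gave 1 to 4 and normexp 0. Over all probes, calls in these 3 comparisons of days went from 540, 1698 and 4724 to 128, 221 and 1142 under normexp. With the slide as a fixed block they went to 12, 393 and 3403. For any difference among groups (1), single arrays gave 0 to 4, normexp and the slide block 0, and leaving out both libraries that stood apart 3. Over all probes this test called 4042, against 723 under normexp, 934 with the slide block and 4919 without both libraries.

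Under normexp the median difference of all probes was 0.28 for day 24 against day 13 (0.02 as reported) and 0.25 for day 24 against day 18 at attachment sites, and -0.30 for day 24 against day 13 at inter-sites (-0.04 as reported). It reversed 4 of 32 differences, none of them called: IL27 for day 24 against day 18 (0.11) and IL29 for day 24 against day 13 (0.054) at attachment sites, and IL4R (-0.14) and IL23A (-0.79) for day 24 against day 13 at inter-sites. Under normexp IL4R rose by 0.94 from day 13 to day 24 with an adjusted p of 0.186 (not called); the cause was not tested.

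With replicate number as a block, the 3 comparisons of days at attachment sites gave 1, 3 and 4 calls, with IL6R added (1.43, adjusted p = 0.0373), and the test of any difference gave 2. Same-numbered arrays of both sites had deviations that correlated between -0.11 and 0.49, not all above 0.1, so the numbers were not taken as pairs. Genes dimmer than the background call in a group have only an upper limit there.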
